A study of Bos taurus with 9 samples.

Results

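The metallothionein transcripts of cloned cattle embryos are described here across the 8-cell and morula stages and after injection of mRNA for KDM6A, a demethylase of lysine 27 on histone H3. The genes MT1A and MT2A were picked by their measured values, namely higher values after the 8-cell stage and, for MT2A, higher values in KDM6A morulae. The 4 other rows that the files name as members of the family were added by name, which makes 6 of the 17258 gene rows found in any of the 9 files. The added rows are MT3, MT4 and a pair of rows named MT1E, with the identifiers ENSBTAG00000001595.4 and ENSBTAG00000038706.1. MT1A is ENSBTAG00000038067.1, MT2A is ENSBTAG00000023659.4, MT3 is ENSBTAG00000016886.2 and MT4 is ENSBTAG00000015084.3. The 3 8-cell files give the name MT2A, where the 6 morula files write MT2, and the morula files leave both MT1E rows without a name, so rows were joined on the identifier.

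All embryos were clones, made by somatic cell nuclear transfer: a donor cell was fused with an egg that had lost its own chromosomes. Per the labels, the nuclei of all 3 groups came from cultured Holstein fetal fibroblasts of a single fetus. KDM6A morulae had received mRNA for wild-type bovine KDM6A 1 h after activation, and control morulae had received no injection, so injection itself and KDM6A cannot be told apart. Both kinds of morula were collected on day 5 in pools of 5 embryos. The 8-cell embryos are labelled as uninjected controls, and the series text takes their libraries from an earlier series, so developmental stage and the origin of the library cannot be told apart wherever they are compared. Each group has 3 libraries. Nothing in the labels ties them to separate oocyte collections, and p-values here reflect only how far these libraries spread, which may be technical.

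Metallothioneins are small, cysteine-rich proteins that bind zinc and copper, buffer the free metal in the cell and take up toxic metals such as cadmium. In mammals MT1 and MT2 proteins are made in most tissues and their genes are switched on by zinc, through the zinc-sensing transcription factor MTF1, and by glucocorticoids and oxidative stress. MT3 is best known from the brain and MT4 from stratified epithelia, both from work in mouse and human.

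Levels are given in FPKM as the authors deposited it, that is, sequenced fragments corrected for transcript length and for library total. Because FPKM is a share of each library, a change of a transcript cannot be told apart from a change in the rest of the library. The libraries were made from embryos, not single cells. Fewer cells making a transcript and less transcript per cell therefore cannot be told apart either. The depth was not given in the sources used here. No counting error can therefore be stated, and precision rests on the 3 libraries of a group. Summed FPKM over identified genes ran from 820345.5 to 989915.8 per library, and 8923 to 9757 genes reached 1 FPKM. The transcript of KDM6A itself stood at 35.65, 87.58 and 79.44 FPKM in KDM6A morulae, against 10.72, 13.86 and 10.74 FPKM in control morulae. KDM6A morula replicate 1 thus had the least KDM6A transcript of the KDM6A morulae. These values count injected mRNA and embryonic transcript together.

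MT1A, both MT1E rows and MT2A were higher in every morula library than in any 8-cell library, and MT3 ran the other way. Such separation was common. Against 8-cell embryos, 71.3% of all genes tested did not overlap in KDM6A morulae and 74.5% in control morulae. MT2A, the most abundant metallothionein of the morula by FPKM, had 433.26, 514.98 and 499.14 FPKM in KDM6A morulae and 281.79, 146.72 and 191.45 FPKM in control morulae, against 7.41, 39.27 and 16.81 FPKM in 8-cell embryos. The 3 groups did not overlap, and the order was KDM6A morula, control morula, 8-cell. Between KDM6A and control morulae 15.7% of all genes tested did not overlap. Mean FPKM was 22.8 times the 8-cell mean in KDM6A morulae and 9.76 times in control morulae. These differences chose the gene and are given without a test. Among all gene rows of a morula file, MT2A ranked 373, 338 and 334 in the KDM6A libraries and 600, 946 and 781 in the control libraries, against 5068, 2071 and 3519 among the rows of the 8-cell libraries.

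MT1A, the other gene picked by its values, had 300.14, 42.11 and 58.32 FPKM in KDM6A morulae and 108.37, 67.4 and 83.11 FPKM in control morulae, and was listed at 0 in all 3 8-cell libraries. Every morula library was thus far above every 8-cell library, but no fold can be stated against a group listed at 0, and an exact 0 in such files can be a failed estimate. The rise was used to pick the gene and is given without a test.

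Both MT1E rows, which were added by name, were also high in morulae. The ENSBTAG00000001595.4 row had 155.45, 53.23 and 56.67 FPKM in KDM6A morulae and 56.3, 51.51 and 49.22 FPKM in control morulae, against 0.64, 1.26 and 1.16 FPKM in 8-cell embryos. It rose by 5.30 in KDM6A morulae (log2 fold change, SE 0.389, limma adjusted p = 2.13e-06) and by 4.73 in control morulae (SE 0.231, limma adjusted p = 6.44e-07) relative to 8-cell embryos. Limma was run on log2(FPKM + 1) over every gene that reached 1 FPKM in 3 or more of the 6 libraries, and a gene was called at an adjusted p under 0.05. The ENSBTAG00000038706.1 row had 28.54, 13.22 and 12.9 FPKM in KDM6A morulae and 14.71, 17.87 and 19.99 FPKM in control morulae, against 0.41, 0 and 0 FPKM in 8-cell embryos. It rose by 4.01 in KDM6A morulae (log2 fold change, SE 0.337, limma adjusted p = 4.39e-06) and by 4.04 in control morulae (SE 0.251, limma adjusted p = 1.84e-06), on a scale where the added pseudocount sets the level of the libraries at 0. MT1A and the MT1E genes are short and nearly identical, and the sharing of reads that match several genes was not described in the sources used here, which leaves the split of the signal among these 3 rows uncertain, and the MT1E rise is not independent of that of MT1A.

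**Figure D1:**
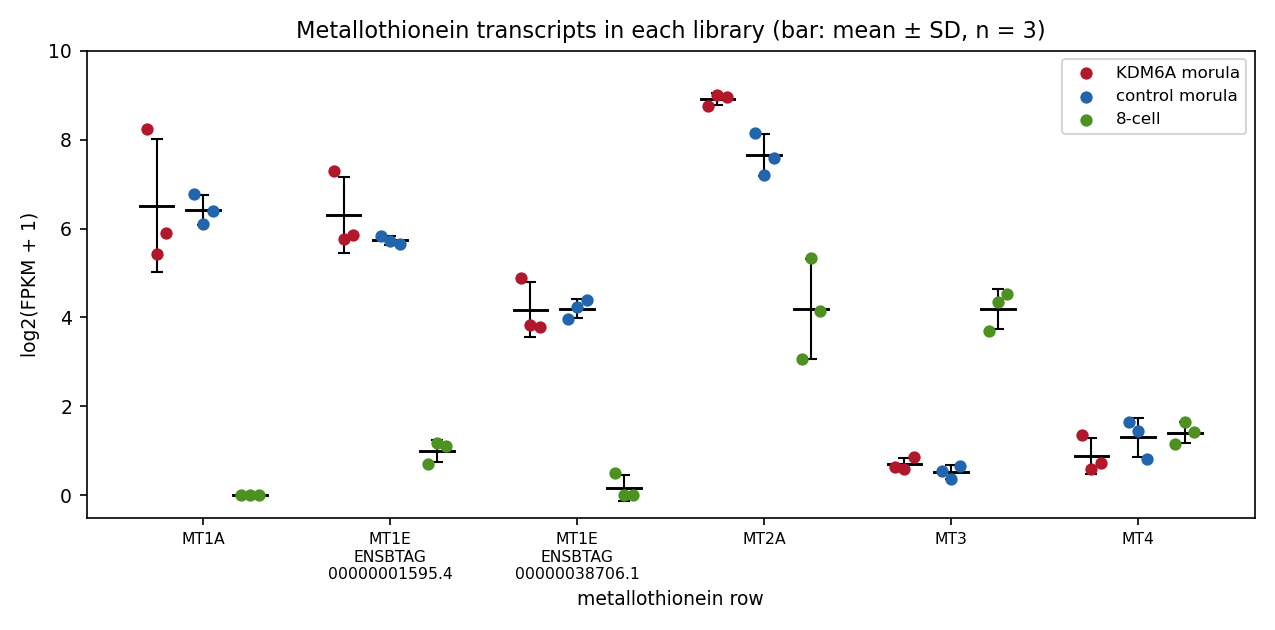
Level of each of the 6 metallothionein rows in each library, as log2(FPKM + 1), with KDM6A morulae in red, control morulae in blue and 8-cell embryos in green, and the mean ± SD of each group of 3 as a bar. MT1A, both MT1E rows and MT2A sit high in morulae, MT3 sits high in the 8-cell libraries only, and MT4 stays low in every group.

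MT3 was the main exception in the family. It had 0.56, 0.5 and 0.81 FPKM in KDM6A morulae and 0.45, 0.28 and 0.59 FPKM in control morulae, against 11.91, 19.44 and 22.07 FPKM in 8-cell embryos. The lowest 8-cell library lay above every morula library. Of all genes tested, 71.3% in KDM6A morulae and 74.5% in control morulae likewise did not overlap with 8-cell embryos, in either direction. MT3 fell by 3.50 in KDM6A morulae (log2 fold change, SE 0.290, limma adjusted p = 4.03e-06), where its mean FPKM was 28.6 times lower, and by 3.67 in control morulae (SE 0.277, limma adjusted p = 4.66e-06), where it was 40.5 times lower. Exact two-sided permutation tests of MT3 and of the MT1E rows gave p = 0.1 in each morula group against 8-cell embryos, which is the smallest p that 3 libraries against 3 allow.

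MT4 was low throughout and did not pass the test in any comparison. It had 1.56, 0.5 and 0.65 FPKM in KDM6A morulae and 2.14, 1.72 and 0.75 FPKM in control morulae, against 1.24, 2.12 and 1.7 FPKM in 8-cell embryos, and the 3 groups overlapped. Its log2 fold change against 8-cell embryos was -0.52 in KDM6A morulae (95% interval -1.11 to 0.065, limma adjusted p = 0.104) and -0.11 in control morulae (95% interval -0.71 to 0.49, limma adjusted p = 0.725). Under quantile normalization and median-of-ratios scaling the difference in KDM6A morulae was called, at -0.96 with a limma adjusted p of 0.00921 and at -0.66 with a limma adjusted p of 0.0481.

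Of the 4 rows that were added by name, both MT1E rows were therefore called higher and MT3 lower in each kind of morula against 8-cell embryos. The background in these comparisons was high. In KDM6A morulae 66.7% of 10024 tested genes were called, 41.1% higher and 25.6% lower, and in control morulae 69.8% of 10048, 42.7% higher and 27.1% lower. The balance of higher and lower calls depends on the scaling, since higher genes were 61.6% of calls in KDM6A morulae and 61.2% in control morulae as deposited, but 50.5% and 50.8% after quantile normalization. A call in these comparisons is thus common among all genes. MT3 and the ENSBTAG00000038706.1 row reached the filter on low values only through the group where they were high, so they had to differ in order to be tested. Both comparisons share the 8-cell libraries and are not independent of each other.

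The make-up of the metallothionein pool differed between stages as well as its size. The 6 rows summed to 919.51, 624.54 and 628.49 FPKM in KDM6A morulae and 463.76, 285.5 and 345.11 FPKM in control morulae, against 21.61, 62.09 and 41.74 FPKM in 8-cell embryos. That was 0.0783% ± 0.0172 of the FPKM of a KDM6A morula library, 0.0377% ± 0.00867 of a control morula library and 0.00495% ± 0.00233 of an 8-cell library (SD, n = 3 each). In 8-cell embryos nearly all of it was MT2A and MT3, and MT3 alone held 55.11%, 31.31% and 52.87%. In morulae MT3 held at most 0.129% in a KDM6A library and at most 0.171% in a control library, while MT1A and the MT1E rows together held 52.65%, 17.38% and 20.35% in KDM6A morulae and 38.68%, 47.91% and 44.14% in control morulae, against 4.859%, 2.029% and 2.779% in 8-cell embryos. These shares include the genes picked by their values and are given as a description.

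**Figure D2:**
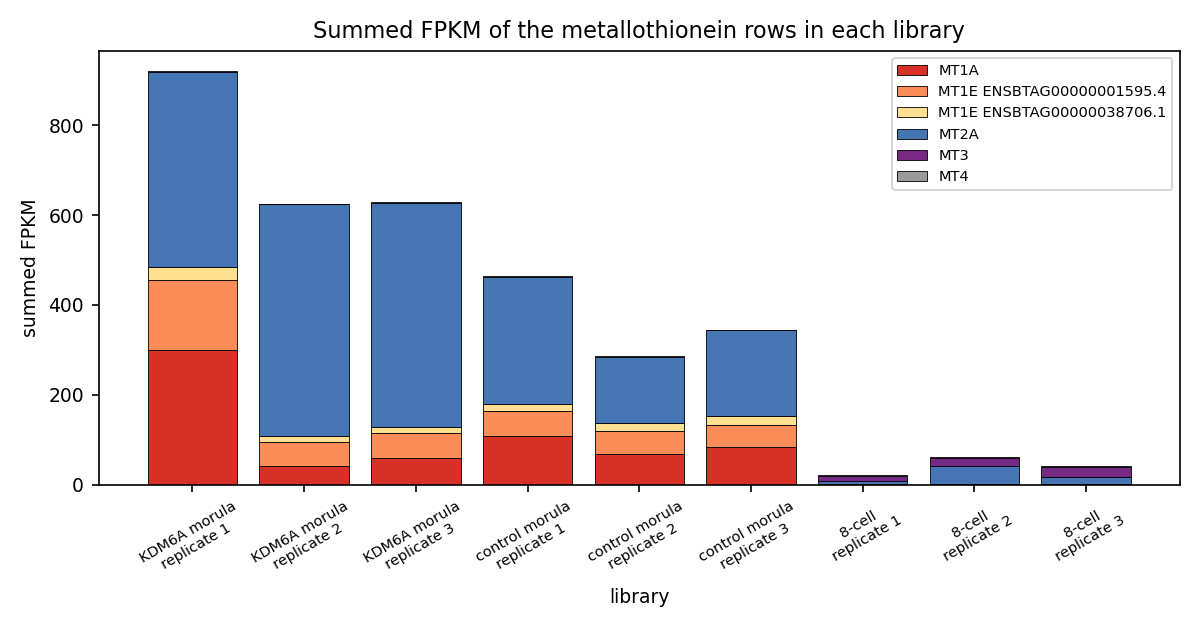
Summed FPKM of the 6 metallothionein rows in each library, as a stacked bar with the FPKM of each row in its own colour, for KDM6A morulae, control morulae and 8-cell embryos from left to right. MT2A and the MT1 rows make up nearly the whole bar in morulae, and the 8-cell bars, at 21.61 to 62.09 FPKM, are mostly MT2A and MT3.

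Within the morula stage, MT2A was higher in KDM6A morulae and the MT1 rows were not called. The lowest KDM6A library of MT2A, at 433.26 FPKM, lay above the highest control library, at 281.79 FPKM. Of all genes tested in this contrast, 15.7% had no overlap between the groups. The mean was 482 ± 43.3 FPKM in KDM6A morulae, against 207 ± 68.8 FPKM in control morulae (SD, n = 3 each), a ratio of 2.33 and a difference of 1.27 in mean log2(FPKM + 1). This contrast was used to pick MT2A, so it carries no test and supports nothing beyond the values themselves. The difference ran from 1.05, without control morula replicate 2, to 1.52, without control morula replicate 1.

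MT1A had not been picked for this contrast. It averaged 134 ± 145 FPKM in KDM6A morulae and 86.3 ± 20.7 FPKM in control morulae (SD, n = 3 each), and the groups overlapped, since 1 KDM6A library lay above and 2 lay below all 3 control libraries. The log2 fold change was 0.10 (SE 0.562, 95% interval -1.14 to 1.34, limma adjusted p = 0.953), with an exact two-sided permutation p of 1. The sign rested on single libraries, because the log2 fold change was -0.76 without KDM6A morula replicate 1 (limma adjusted p = 0.0720) and -0.065 without control morula replicate 2 (limma adjusted p = 0.977).

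Among the other rows, none of the 3 that were tested in this contrast was called, as for MT1A, beside a background of 0.164% of 9777 genes, 0.123% higher and 0.0409% lower. The ENSBTAG00000001595.4 row of MT1E had a log2 fold change of 0.57 in KDM6A morulae against control morulae (95% interval -0.18 to 1.31, limma adjusted p = 0.501), and of 0.070 without KDM6A morula replicate 1. For the ENSBTAG00000038706.1 row the log2 fold change was -0.031 (95% interval -0.67 to 0.61, limma adjusted p = 0.973). For MT4 it was -0.41 (95% interval -1.05 to 0.22, limma adjusted p = 0.564). MT3 lay under 1 FPKM in all 6 morula libraries and was not tested. These intervals are wide enough to hold changes of the size seen for MT2A at the upper end for MT1A and the ENSBTAG00000001595.4 row, so the missing calls do not show that the rows were alike in the 2 groups.

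The 3 KDM6A libraries differed among themselves in the MT1 rows far more than in MT2A. Replicate 1 held 5.98 times the mean of the other 2 KDM6A libraries for MT1A, 2.83 times for the ENSBTAG00000001595.4 row of MT1E and 2.19 times for the ENSBTAG00000038706.1 row, but 0.855 times for MT2A. The ratio of MT2A to MT1A was 1.444, 12.23 and 8.559 in KDM6A morulae, against 2.6, 2.177 and 2.304 in control morulae. Replicate 1 therefore lay below every control library in this ratio, while replicates 2 and 3 lay above all of them. Replicate 1 is also the KDM6A library with the least KDM6A transcript, and a link between the MT1 level and that transcript was not tested.

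Few genes were at least 2-fold higher in KDM6A morula replicate 1 than in every other morula library. Genes that were lower there were not counted. Of 6654 genes with a mean of at least 5 FPKM, 7 stood at least 2-fold above the highest of the other 5 morula libraries in replicate 1, which is 0.105%. The same count was 3 in each of KDM6A morula replicates 2 and 3, and it was 19, 1 and 3 in control morula replicates 1, 2 and 3. The first places among the 7 went to MT1A, at 2.77 times, and the ENSBTAG00000001595.4 row of MT1E, at 2.74 times. The split of reads between these nearly identical genes is uncertain, so their places are not independent of each other. The other 5, listed after their values were seen, were PSPH, a phosphatase of serine synthesis, CLDN4, a tight-junction claudin, PSRC1, RDH12 and ADA, at 2.04 to 2.37 times.

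**Figure D3:**
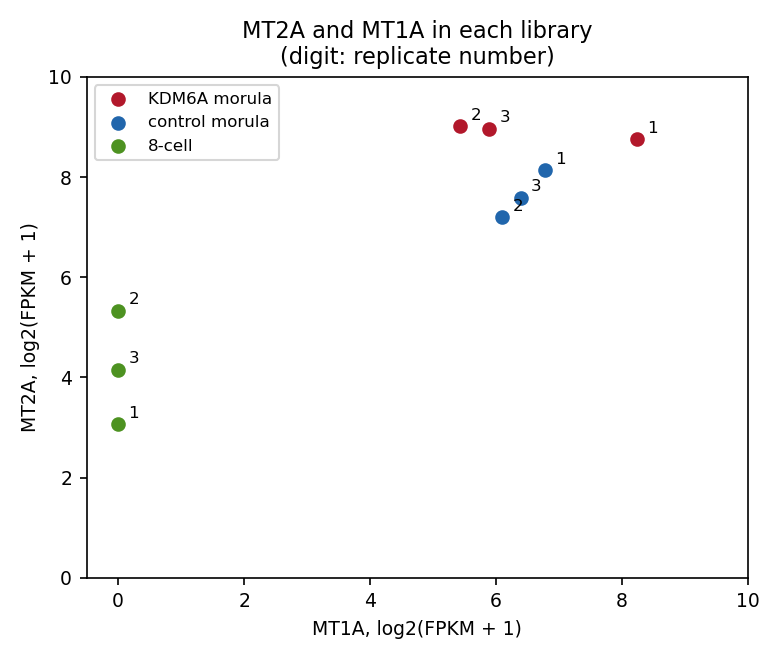
MT2A (vertical) against MT1A (horizontal) in the 9 libraries, both as log2(FPKM + 1), with KDM6A morulae in red, control morulae in blue, 8-cell embryos in green and the replicate number beside each point. The KDM6A libraries sit at 433.26 to 514.98 FPKM of MT2A, above every control library, while their MT1A runs from 42.11 to 300.14 FPKM, on both sides of the control libraries. Between these groups 15.7% of all genes tested had no overlap.

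Regulators of metallothionein genes were called in both directions between stages. MTF1, the zinc-sensing activator, had 3.85, 5.39 and 3.64 FPKM in KDM6A morulae and 4.72, 4.13 and 3.28 FPKM in control morulae, against 10.73, 7.6 and 9.87 FPKM in 8-cell embryos. Every morula library was thus below every 8-cell library. Of all genes tested, 71.3% in KDM6A morulae and 74.5% in control morulae did not overlap with 8-cell embryos. MTF1 fell by 0.98 in KDM6A morulae (log2 fold change, limma adjusted p = 0.00761) and by 1.04 in control morulae (limma adjusted p = 0.00353), opposite in direction to the MT1 and MT2 rows. Of 10 listed regulators 9 were tested in each comparison. Against 8-cell embryos 4 rose and 3 fell in KDM6A morulae, and 3 rose and 3 fell in control morulae, with median log2 fold changes of 0.42 and 0.21 beside 0.34 and 0.35 over all genes tested. Of all genes 66.7% were called in KDM6A morulae and 69.8% in control morulae, so these counts do not set the list apart. SP1, a general activator, fell by 1.58 in KDM6A morulae and by 1.66 in control morulae, and the coactivator EP300 fell by 0.93 in KDM6A morulae and by 1.52 in control morulae. NFE2L2, the activator of the oxidative stress response, rose by 1.27 in KDM6A morulae and by 1.30 in control morulae, and USF1 rose by 1.21 in KDM6A morulae and by 1.15 in control morulae. NR3C1, the glucocorticoid receptor, stayed at 0.58 FPKM or less in all 9 libraries.

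Zinc importers of the SLC39 family were called in both directions between stages. All 12 that were tested, of 14 listed, were called in both kinds of morula against 8-cell embryos, with 8 higher and 4 lower and a median log2 fold change of 2.13 in KDM6A morulae and 2.04 in control morulae, beside 66.7% and 69.8% of all genes called and medians of 0.344 and 0.347 over all genes. SLC39A2 had 39.98, 27.96 and 39.0 FPKM in KDM6A morulae and 31.09, 27.53 and 47.28 FPKM in control morulae, and, like MT1A, was listed at 0 in all 3 8-cell libraries. SLC39A4, the importer that takes up dietary zinc in the gut, rose by 3.46 in KDM6A morulae (log2 fold change, limma adjusted p = 9.54e-06) and by 3.58 in control morulae (limma adjusted p = 7.46e-06). SLC39A1 rose by 2.90 in KDM6A morulae and by 2.77 in control morulae. The 4 that fell were SLC39A6, SLC39A9, SLC39A10 and SLC39A12. SLC39A12 fell by 3.37 in KDM6A morulae and by 3.35 in control morulae, and, like MT3, lay under 1 FPKM in all 6 morula libraries and above 7 FPKM in all 3 8-cell libraries. The importers SLC39A2, SLC39A11 and SLC39A12 reached the filter through 1 group only, so the count of 12 is no support for a change of the whole list. SLC39A6 and SLC39A10 are known in mouse oocytes for the zinc uptake of maturation.

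Zinc exporters of the SLC30 family were mixed. Of 7 tested, of 10 listed, 2 rose and 2 fell in each kind of morula against 8-cell embryos, with a median log2 fold change of -0.35 in KDM6A morulae and -0.48 in control morulae. Over all genes 41.1% rose and 25.6% fell in KDM6A morulae, and 42.7% rose and 27.1% fell in control morulae. SLC30A2, which loads zinc into vesicles, had 23.31, 9.96 and 11.1 FPKM in KDM6A morulae and 19.41, 30.38 and 17.92 FPKM in control morulae, against 0.14, 0.07 and 0.07 FPKM in 8-cell embryos, and rose by 3.76 and 4.39 in these morula groups, where it reached the filter only through the morulae. SLC30A1, the exporter of the cell surface and itself a known MTF1 target, fell by 0.91 in KDM6A morulae (limma adjusted p = 0.0349) and by 1.05 in control morulae (limma adjusted p = 0.0160), and these calls were lost under 5 and 2 of 13 alternatives. SLC30A7 also fell. SLC30A5 rose, a call lost under 7 alternatives in KDM6A morulae and 3 in control morulae.

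**Figure D4:**
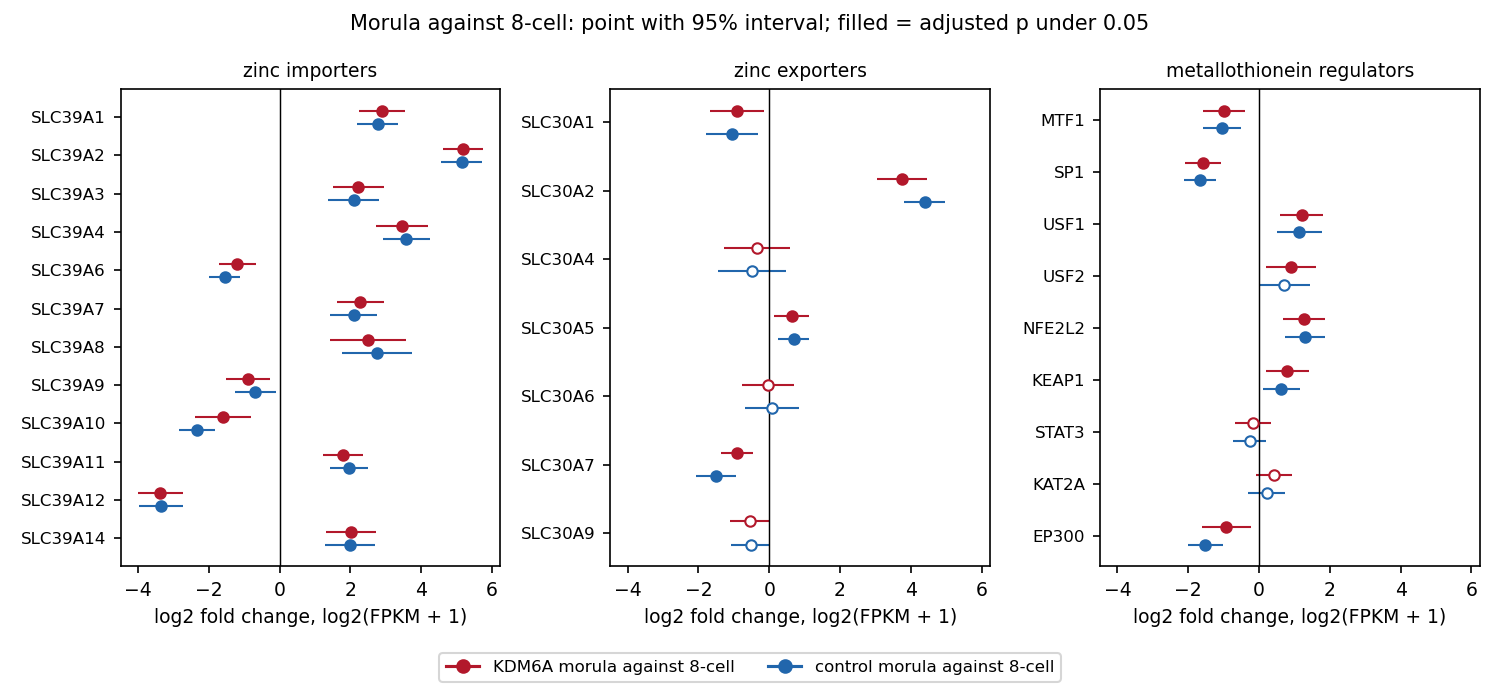
Log2 fold change of zinc importers, zinc exporters and metallothionein regulators in KDM6A morulae (red) and control morulae (blue) against the shared 8-cell libraries, with the 95% interval as a line and calls at an adjusted p under 0.05 as filled points. The importers separate into 8 genes to the right and 4 to the left of 0, and MTF1 lies to the left in both.

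Other lists of metal and stress genes gave counts that are read against the same high background. That background was 66.7% of all genes called in KDM6A morulae and 69.8% in control morulae. Of copper genes 5 rose and 1 fell among 12 tested in KDM6A morulae, and 4 rose among 11 in control morulae. They were led by the copper chaperone ATOX1, at 8.66 times the 8-cell mean FPKM in KDM6A morulae and 10.8 times in control morulae, followed by COX17, COMMD1 and CUTC, the last of which lost its call in KDM6A morulae under 6 of 13 alternatives. Of 13 iron genes tested 9 rose and 2 fell in each kind of morula, among them NCOA4, SLC11A2 and STEAP3. Of 9 glutathione and NRF2 genes tested 5 rose and 2 fell in KDM6A morulae, and 5 rose and 1 fell in control morulae, with GSTP1, TXN and PRDX1 higher in both, GSS among the leading calls in KDM6A morulae, and GCLC, the rate-limiting enzyme of glutathione synthesis, lower in both.

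Of 11 listed genes of the glucocorticoid response, which include the receptor NR3C1, 4 were tested. None rose, beside 41.1% of all genes in KDM6A morulae and 42.7% in control morulae, and 1 fell in KDM6A morulae and 2 in control morulae, namely ZBTB16 in both and SGK1 in control morulae, a call lost without control morula replicate 2 or 3. The share of all genes that fell was 25.6% and 27.1%, and ZBTB16 reached the filter only through the 8-cell libraries where it was high, so these counts do not set the list apart. Of 13 heat shock and unfolded protein genes tested 5 rose and 4 fell in KDM6A morulae, and 6 rose and 4 fell in control morulae, with HSPB1 and HSP90AA1 higher and DNAJB1 and DDIT3 lower in both.

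No member of any of these lists was called between KDM6A and control morulae, beside 0.164% of all genes tested. The closest was HSPB1, a small heat shock protein, with 687.71, 696.2 and 779.67 FPKM in KDM6A morulae, against 460.82, 411.14 and 385.36 FPKM in control morulae. Like MT2A it had no overlap between the groups, as did 15.7% of all genes tested, and its log2 fold change was 0.78 (limma adjusted p = 0.0552), which was called under 3 of 13 alternatives. MTF1 had a log2 fold change of 0.065 (limma adjusted p = 0.922). The smallest unadjusted p-values of the other lists belonged to SLC39A6 and SLC39A10, SLC30A2 and SLC30A7, EP300 and USF2, COX11 and COMMD1, PCBP1 and NCOA4, GSS and PRDX1, SGK1 and DUSP1, and HSF1 beside HSPB1, and their limma adjusted p-values ran from 0.283 to 0.871. Without KDM6A morula replicate 1, the library with the high MT1 rows, 9 listed genes were called, 2 of them fibroblast markers. Calls over all genes also rose most when this library was left out. The share of genes called in that setting is not given here, so no reading of the lists rests on that count.

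Genes beside the metallothionein cluster were compared in the same way. In the RefSeq table of the ARS-UCD2.0 assembly, which is not the build of the files and is used here for order only, the cluster runs MT1A, LOC768319, LOC613358, MT2A, MT3 and MT4, and both LOC entries carry MT1E as a synonym. No other protein-coding gene lies between them, so the morula-high MT2A and the 8-cell-high MT3 are direct neighbours. Of the nearest genes on each side, CES1 and CAPNS2 were not analysed here, SLC6A2 had a row in the 8-cell files only, and GNAO1 was under the filter on low values. LPCAT2 and MMP2 lie on the MT1A side, and BBS2, OGFOD1 and NUDT21 on the MT4 side.

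Against 8-cell embryos, MMP2 rose by 1.64 and NUDT21 fell by 0.55 in KDM6A morulae (log2 fold change, limma adjusted p = 0.000762 and 0.0135). MMP2, at 0.19, 0.56 and 0 FPKM in 8-cell embryos, was tested there only through the KDM6A libraries where it was high. In the same comparison LPCAT2, BBS2 and OGFOD1 were not called. In control morulae BBS2 rose by 1.01 (limma adjusted p = 0.00513), and LPCAT2, OGFOD1 and NUDT21 were not called. The call of NUDT21 was lost without KDM6A morula replicate 2 and without 8-cell replicate 3. BBS2, the neighbour of MT4, had 9.95, 8.98 and 7.39 FPKM in KDM6A morulae and 13.78, 12.72 and 9.6 FPKM in control morulae, against 5.03, 6.98 and 4.46 FPKM in 8-cell embryos. None of these 5 neighbours was called between KDM6A and control morulae, with limma adjusted p-values of 0.283 to 0.886.

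The genes whose values ran most like those of each metallothionein were found by the root mean square difference of log2(FPKM + 1), after each gene's own mean was taken off, a measure that is 0 for identical patterns. Over all 9 libraries and 7273 candidate genes, the genes most like MT1A were ENPEP, an aminopeptidase of the cell surface, at 0.652, PPP1R14A at 0.708, RABAC1 at 0.712, HINT2 at 0.722 and LITAF at 0.726. The ENSBTAG00000001595.4 row of MT1E stood at 0.795 from MT1A and MT2A at 1.54. Most like MT2A were TPM2, a tropomyosin, at 0.404, TNP2 at 0.618, OSTF1 at 0.651, CHI3L2 at 0.674 and GAPDH, the glycolytic enzyme, at 0.688.

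Over the 6 morula libraries alone MT1A and MT2A ran apart, at 1.11 from each other, and had different close genes. The genes most like MT1A, of 726 candidates, were ABRACL at 0.355, TSTD3 at 0.411, GRP at 0.444, PSPH at 0.448 and AIG1 at 0.469, and the ENSBTAG00000001595.4 row of MT1E followed closely at 0.474. Each of them was highest in KDM6A morula replicate 1. The genes most like MT2A, of 1458 candidates, were TPM2 at 0.114, ZNF280A at 0.166, TRIM54 at 0.172, DUOXA2 at 0.225 and MATN4 at 0.230. TPM2 had 56.77, 66.49 and 60.51 FPKM in KDM6A morulae, against 29.36, 17.23 and 20.37 FPKM in control morulae. TPM2 thus shared with MT2A its non-overlapping groups, as did 15.7% of all genes tested in this contrast, and, in both groups, the order of the libraries. It was found by its likeness in these same libraries, so this is no separate result. These likenesses share the libraries and their scaling, were searched among many genes, and are a description.

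**Figure D5:**
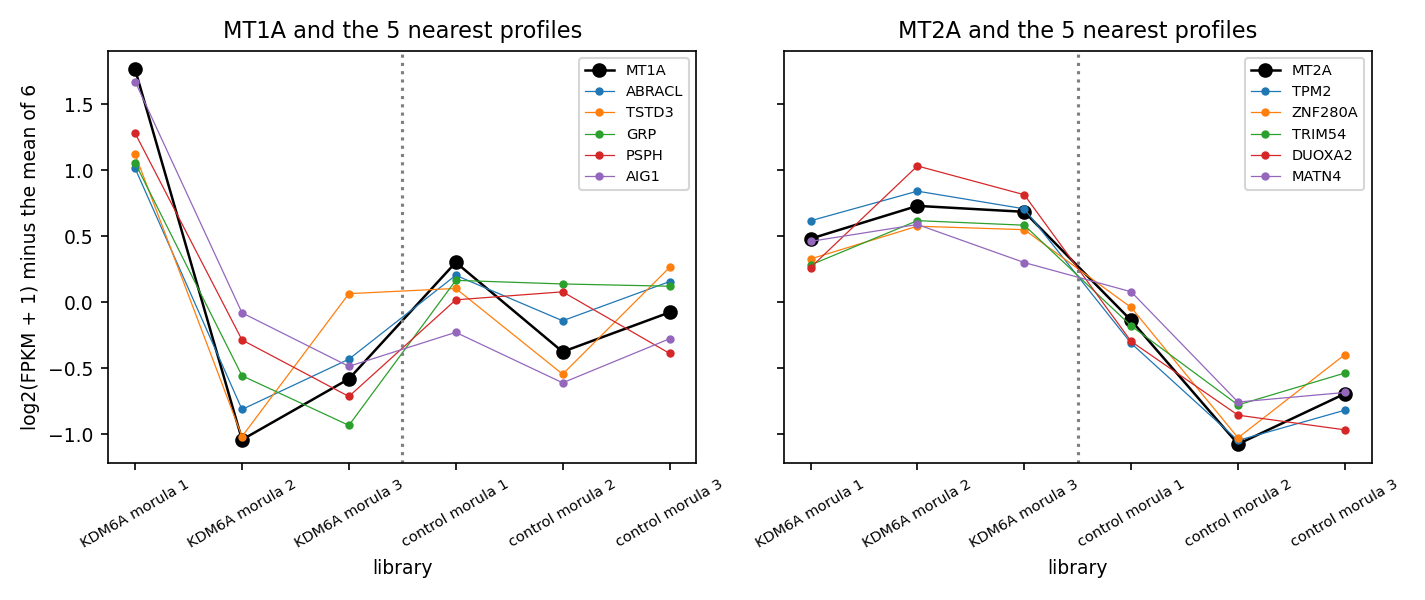
Log2(FPKM + 1), with each gene's own mean taken off, in the 6 morula libraries for MT1A and MT2A (black) and the 5 genes most like each, with lines only linking the values of a gene. MT1A and its closest genes peak in KDM6A morula replicate 1, and MT2A and its closest genes are higher in the 3 KDM6A libraries than in the 3 control libraries.

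Markers of other cells a pool could hold were set beside the metallothionein values. Of 15 listed fibroblast markers 14 had a row in the morula files, and they summed to 936.88 to 1032.6 FPKM in KDM6A morulae and 829.06 to 1069.1 FPKM in control morulae, against 60.72 to 108.33 FPKM in 8-cell embryos. This sum was higher in morulae, as were the MT1 and MT2 rows, and it was held almost whole by TIMP1, SPARC and FN1. Among the rest, COL1A2 and COL3A1 were at 0.36 FPKM or less in every morula library and COL1A1 at 1.17 FPKM or less, while DCN had 7.63 to 23.74 FPKM in KDM6A morulae and 8.41 to 27.06 FPKM in control morulae. In 8-cell replicate 2, the 8-cell library with the most MT2A, 13 of the 15 fibroblast markers reached 1 FPKM, against 8 and 7 in replicates 1 and 3, with LUM at 29.11 FPKM in replicate 2. Without 8-cell replicate 2 the difference of MT2A in mean log2(FPKM + 1) from 8-cell embryos was 5.30 in KDM6A morulae and 4.03 in control morulae, against 4.73 and 3.46 with it. Of 9 fibroblast markers tested 5 rose and 1 fell in KDM6A morulae. Of 8 tested in control morulae 5 rose and 2 fell, with S100A4 among the higher genes of both. Over all genes 41.1% rose and 25.6% fell in KDM6A morulae, and 42.7% rose and 27.1% fell in control morulae. THY1 reached the filter only through the morulae where it was high.

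Cumulus and granulosa markers, 8 of 10 with a row, summed to 2.8 to 5.92 FPKM in KDM6A morulae and 4.13 to 5.96 FPKM in control morulae, against 15.3 to 26.01 FPKM in 8-cell embryos, and only HAS2 and TNFAIP6 could be tested, both called lower in morulae. HAS2 reached the filter in the KDM6A comparison only through the 8-cell libraries. Between 1 and 4 of the 8 were at 0 in each library, and INHA was at 0 in 8 of the 9. Oocyte and maternal markers, 11 of 12 with a row, summed to 509.28 to 642.71 FPKM in KDM6A morulae and 395.64 to 1097.4 FPKM in control morulae, against 4955.4 to 11023 FPKM in 8-cell embryos. All 10 that were tested fell in both kinds of morula, beside 25.6% of all genes in KDM6A morulae and 27.1% in control morulae. Among them were ZP2, ZP4, BMP15 and BTG4, and ZP3, DPPA3 and NPM2. ZAR1 reached the filter only through the 8-cell libraries where it was high. None of the 11 was at 0 in any library. Between stages, MT3 was thus high in the libraries with much maternal transcript and the MT1 and MT2 rows in those with little. Within a stage this did not hold throughout. The 8-cell library with the highest maternal sum was replicate 2, and it had the most MT2A, at 39.27 FPKM. MT3 was highest in 8-cell replicate 3, at 22.07 FPKM. Among KDM6A morulae, replicate 1 had the highest maternal sum and the least MT2A, at 433.26 FPKM. The highest morula sum, 1097.4 FPKM, was that of control morula replicate 1, which also had the most MT2A of the controls. Between KDM6A and control morulae no marker was called, with limma adjusted p-values of 0.0870 for TIMP1, 0.307 for FN1, 0.445 for ZP3 and 0.538 for DPPA3, and a log2 fold change of 0.029 for TNFAIP6. The part of other cells or of remaining maternal transcript in the metallothionein values was not tested.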

How the data were processed

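RNA sequencing gave 1 file per library. The authors deposited FPKM, as the headers name it, with 2 decimals per gene. The submitters' processing notes list build UMD3.1 and, in no stated role, RSEM 1.2.12, Bowtie2 2.2.5, StringTie 1.0.4, HISAT 0.1.6 and bcl2fastq 2.16. Treatment of reads that match several genes was not described in the sources used here. The labels' protocols name cDNA synthesis with SuperScript III and amplification before library preparation. In control morula replicate 1, 3038 rows without an Ensembl identifier were left out.

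Log2 fold changes and adjusted p-values came from limma 3.58.1 in R 4.3.3, with a trended prior, on log2(FPKM + 1), fitted on the 6 libraries compared and on every gene that reached 1 FPKM in 3 or more of them. Benjamini-Hochberg adjustment ran over all genes tested, with a threshold of 0.05. FPKM is not a count, so no count test was used. A fold change on this scale understates the change of low genes. Ratios are of mean FPKM. Permutation tests were exact and two-sided. The fit was tested on simulated data. Figures and summaries used Python 3.11.15.

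The members and the gene lists were chosen with earlier results of these data known. MT1A against 8-cell embryos and MT2A in every contrast carry no test. Named beside the members were MTF1, every neighbour of the cluster, the 4 called genes with the smallest p per list and comparison (2 with the smallest p where none was called) and the 5 genes most like MT1A and MT2A, apart from a few genes that are not reported here. The candidates for likeness had a usable symbol and averaged 5 FPKM or more in a group, and over the morulae also an SD of at least 50% of that of the metallothionein. Alternatives were a pseudocount of 0.1, no filter, quantile normalization, median-of-ratios scaling, rescaling to a TPM scale, all 9 libraries in 1 fit, the replicate number as a block, and leaving out each library. The RefSeq table served for names and gene order only, and no sequence or coordinate is given.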

Additional observations from a re-analysis of the deposited data

How the results depend on the processing

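The rise of both MT1E rows and the fall of MT3 in morulae against 8-cell embryos passed the test, in the same direction, under every alternative in which the row was tested (13 for the ENSBTAG00000001595.4 row, 10 for the other 2 rows, which fall below the filter without a library). The MT2A difference between KDM6A and control morulae, which chose the gene, was 1.05 to 1.52 on the log2 scale without single libraries and 1.26 to 1.34 otherwise. Its direction could not turn when a library was left out, because the groups do not overlap. For MT1A between KDM6A and control morulae the log2 fold change ran from -0.76 to 0.64 without single libraries, and it was below 0 without KDM6A morula replicate 1 and without control morula replicate 2. The difference of MT1A from 8-cell embryos, 6.52 in KDM6A morulae and 6.42 in control morulae with a pseudocount of 1, was 9.82 and 9.73 with a pseudocount of 0.1, because the pseudocount sets the level of a group listed at 0. The ENSBTAG00000038706.1 row changed sign between KDM6A and control morulae on the TPM scale, at 0.029, and ran from -0.39 to 0.16 without single libraries. MT4 in control morulae against 8-cell embryos ran from -0.29 to 0.13 without single libraries and was 0.0023 without 8-cell replicate 2. MT4 could not be tested between KDM6A and control morulae without KDM6A morula replicate 1, control morula replicate 1 or control morula replicate 2.

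The number of genes called between KDM6A and control morulae, 16, was 0 without the filter, 10 when all 9 libraries were fitted together, 25 on the TPM scale, 28 after quantile normalization and 1 with the replicate block, and ran from 1 to 725 without single libraries, the highest without KDM6A morula replicate 1. An unadjusted p under 0.05 was reached by 1244 genes. Calls in the gene lists, 0, were 1 after quantile normalization, 1 on the TPM scale and 0 to 9 without single libraries. The cause of these shifts was not tested. Single libraries also decided calls against 8-cell embryos: SLC30A1 and SLC30A5 were not called in control morulae without control morula replicate 2, nor in KDM6A morulae without KDM6A morula replicate 1, 8-cell replicate 2 or 8-cell replicate 3. Without KDM6A morula replicate 3 SLC30A1 and TNFAIP6 lost their calls in KDM6A morulae, and without KDM6A morula replicate 2 SLC30A5 and CUTC did. CUTC also lost its call there without KDM6A morula replicate 1 or 8-cell replicate 3. Against 8-cell embryos the median change over all genes (log2), 0.344 in KDM6A morulae and 0.347 in control morulae, was 0.036 and 0.033 after quantile normalization, which sets all libraries to the same distribution.

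The deviations of same-numbered KDM6A and control morulae correlated at -0.217, -0.242 and 0.160, so the replicate numbers gave no common sign of pairing. Between different numbers the correlations ran from -0.197 to 0.31, the highest for KDM6A morula replicate 1 with control morula replicate 2. Whether libraries are tied under other numbers was not tested. With the replicate block MT1A kept a log2 fold change of 0.10 (limma adjusted p = 0.938). The depth is unknown, so how far low values such as those of MT3 in morulae, MT4 and the MT1 rows in 8-cell embryos rest on few reads cannot be stated.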
